A study of Mus musculus with 12 samples.

Results

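The matrix proteases and their inhibitors were taken as all genes of the count table whose mouse symbol begins with Mmp, Adam, Adamts or Adamtsl followed by a number, or is Timp1 to Timp4, and whose counts summed to 50 or more over 12 islet libraries. Of 37991 genes in the table, 83 matched these symbols and 52 reached the total: 15 Mmp, 15 Adam, 15 Adamts, 4 Adamtsl and 3 Timp genes. The other 31 matching genes lay below it, and 16 of them, Timp4 included, had no count in any library. Just inside the limit lay Adamts20, with a total of 50 counts, Adam21, with 59, and Mmp25, with 60, and just outside it lay Adamts3, with 47, Adamtsl3, with 45, and Adamts16, with 42.

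Matrix metalloproteinases (MMPs) are zinc enzymes that cut collagens and other matrix proteins, some of them secreted and some anchored in the cell membrane. ADAMs are membrane proteins, several of which release the outer part of other surface proteins. ADAMTS enzymes are secreted and trim procollagens and proteoglycans, ADAMTSL proteins resemble them but lack a protease domain, and the tissue inhibitors of metalloproteinases (TIMPs) bind and block many of these enzymes. In the islet they act at the basement membrane around capillaries and at the surface of endocrine cells.

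RNA was sequenced from isolated pancreatic islets of male C57BL/6 mice, namely mice that overexpress miR-7a2 only in β-cells (Tg7), which lose β-cell identity and become diabetic, and wild-type littermates (Wt). There were 3 libraries of each genotype at 2 weeks of age (2w), when Tg7 mice were still normoglycaemic, and 3 of each at 12 weeks (12w), when they were diabetic; the Wt libraries at 12w are numbered 1, 2 and 4. Each library held islets pooled from at least 3 animals, so that p-values measure the spread between pools. The sources used here do not name the promoter of the transgene, and whole islets contain endothelial, stromal and immune cells besides the β-cells that carry it.

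Total counts ranged from 11610697 to 17515758 per library, and the 52 genes together received 0.039% to 0.101% of them. Levels are CPM, that is, counts relative to the library size as scaled by TMM. Summed β-cell marker levels were lower in Tg7 islets at both ages, and the insulin genes took 10.1% to 15.4% of counts in Wt and 1.84% to 4.09% in Tg7 libraries at 2w. At 12w they took 30.0%, 27.0% and 14.9% in Wt replicates 1, 2 and 4 and 8.08% to 8.24% in Tg7 libraries, so that Wt replicate 4 stood apart from the other 2 Wt libraries. Replicate 1 of Tg7 at 2w also stood apart, with a summed level of 14.9 CPM for T and NK lymphocyte markers, against at most 1.29 CPM in the other 2w libraries. Calls that were lost without either of these 2 libraries are also given without it.

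The transgene encodes the miRNA whose mature form is shown here because its seed, bases 2 to 8 in capitals, defines the letters that were searched for in the 3′ UTRs of the protease genes. The mature sequence (RefSeq, GRCm38.p6, chr7:78888295-78888317, plus strand) reads as follows.
mmu-miR-7a-5p: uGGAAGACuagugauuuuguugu
The reverse complement of the seed, GTCTTCC, occurred in an annotated 3′ UTR (mm9 transcripts) of 14.4% of 14406 tested genes with such a UTR and of 5 of the 48 tested protease and inhibitor genes, or 10.4%. These 5 genes were Adam11, Adam12, Adam19, Adamts8 and Adamtsl1, and Adamts8 held 3 matches. The matches with flanking bases, to show what surrounds the 7 capitals, are given for Adam12, a gene the study followed as a matrix remodeller, and for the 2 genes in which an A follows the match.
Adam12: agagagactcgGTCTTCCtcacattctgaa
Adamts8: tccctggctcaGTCTTCCatataaggaatt
Adamtsl1: caaatgcaggcGTCTTCCagctctgccacc
A match of letters is a description and no evidence of binding. Of the 5 genes, Adamtsl1 was tested only because of its counts in the Tg7 libraries at 2w. The median log2 fold change of the 5 genes in Tg7 over Wt islets was 0.68 at 2w and 0.91 at 12w. In the other tested protease and inhibitor genes it was 0.44 and 0.86. Over all tested genes the corresponding medians were −0.04 and −0.09 with a match, and 0.04 and −0.01 without.

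The first question was whether the genes of matrix proteolysis differed between Tg7 and Wt islets at each age. At 2w, 9 of 48 tested genes were upregulated in Tg7 islets and 1 was downregulated, and at 12w 17 were upregulated and 2 downregulated (edgeR, adjusted p under 0.05). Of all 15961 tested genes, 6.07% were upregulated and 4.55% downregulated at 2w, and 12.5% and 11.2% at 12w. The upregulated share of the 48 was 18.8% at 2w and 35.4% at 12w. Their median log2 fold change was 0.51 at 2w and 0.90 at 12w, against 0.03 and −0.01 over all tested genes.

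A set of 8 genes was upregulated at both ages: Timp2, Timp3, Mmp2, Mmp14, Adam22, Adam23, Adamts2 and Adamts10. Adam9 was downregulated at both. These joint calls are listed as a description, with no share of all tested genes called at both ages beside them. Another 9 were upregulated at 12w and did not pass the test at 2w, and Timp1 passed at 2w and not at 12w. Without Wt replicate 4 at 12w, 15 genes were upregulated and 2 downregulated at 12w. Without Tg7 replicate 1 at 2w, 5 were upregulated and 2 downregulated at 2w. The count at 2w rested on few libraries, since it fell from 10 to 4 without Wt replicate 1, to 4 without Wt replicate 3 and to 6 without Tg7 replicate 3 of that age.

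Another 4 of the 52 genes (Adam21, Adamts20, Mmp25 and Mmp9) were too low to test. Mmp3 passed the expression filter only through the Tg7 libraries at 12w and Adamtsl1 only through those at 2w, so that whether they were tested depended on the values compared. Leaving both out, 46 tested genes gave 9 upregulated and 1 downregulated at 2w, and 16 and 2 at 12w. In bulk islet RNA, more cells of a type that expresses a gene and more RNA of that gene per cell cannot be told apart. Markers of some other islet cells moved along with the genotype, whereas no α-cell or δ-cell marker passed the test at either age. Of 6 tested ductal and 6 tested Schwann markers, 2 each were upregulated at 12w and 0 at 2w. Of 2 PP-cell markers, 1 was upregulated at 2w. In both the acinar and the macrophage list, 1 marker was upregulated at 2w and 1 downregulated at 12w. Summed stellate and fibroblast markers were 346.4–502.7 CPM in Wt and 539.4–716.8 CPM in Tg7 libraries at 2w, and 91.7–154.1 and 405.6–426.6 CPM at 12w, with 6 and 10 of 11 tested markers upregulated. Summed endothelial markers were 1094–1368 and 1244–1318 CPM at 2w and 479.1–587.3 and 958.1–999 CPM at 12w. Of these 10 markers, 8 were upregulated at 12w and none at 2w. Summed mesothelial markers went the other way, with 91.62–133.2 and 27.97–37.32 CPM at 2w and 34.64–56.25 and 1.05–1.715 CPM at 12w. Only 1 of these 5 mesothelial markers was high enough to test, and it was downregulated at both ages. The part of these cells in the results below was not tested.

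**Figure D1:**
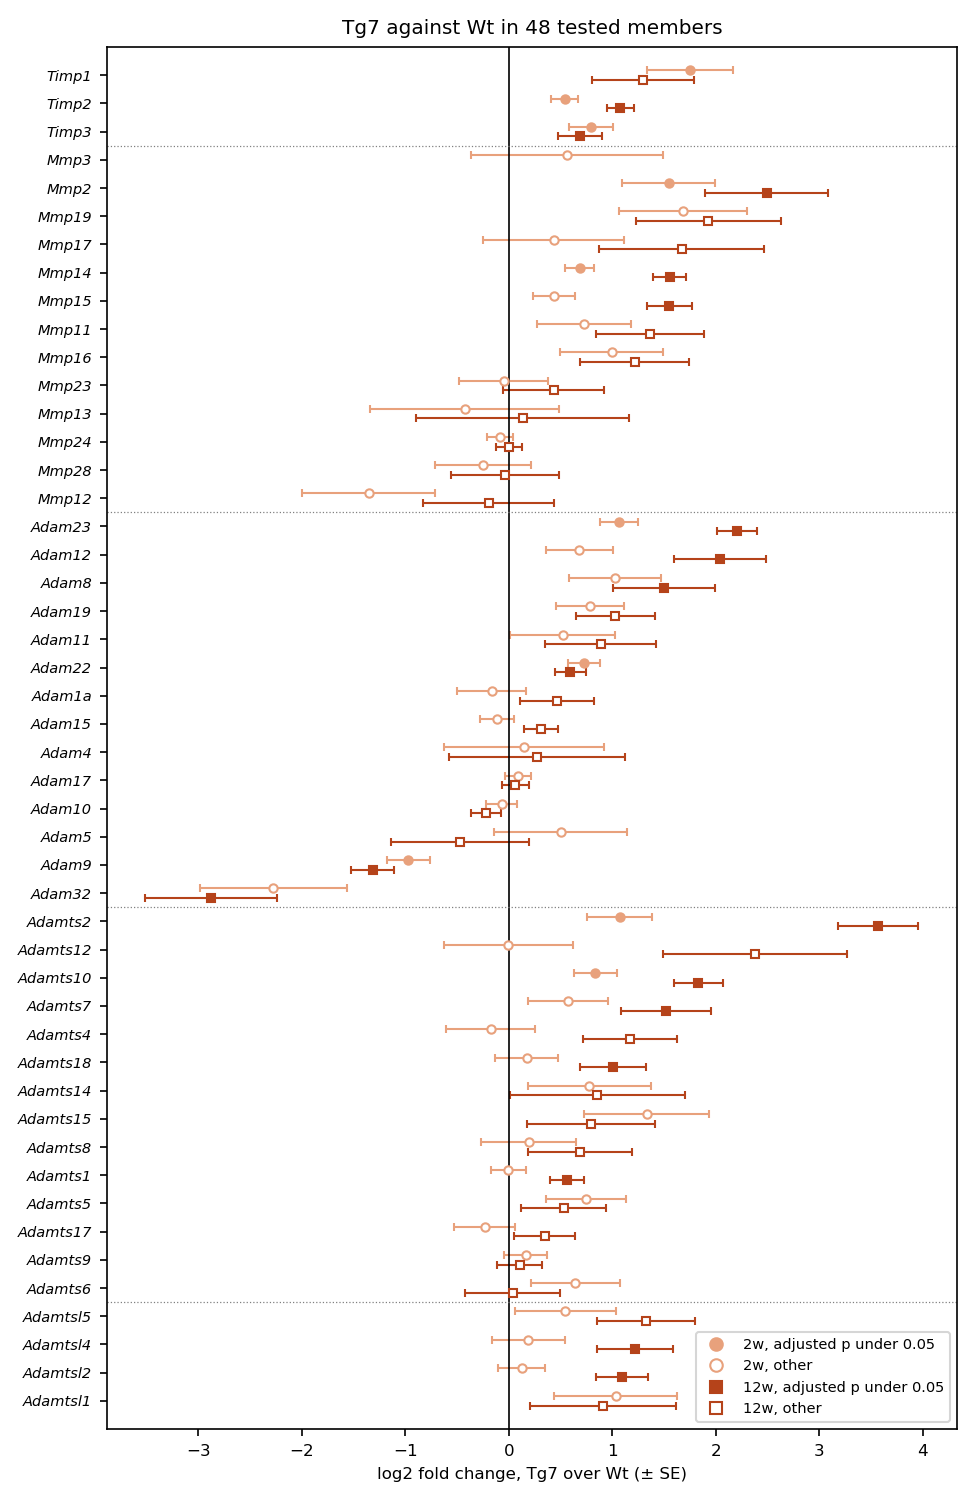
Log2 fold change of Tg7 over Wt (x axis, ± SE) for 48 tested genes, grouped by subfamily; circles are 2w and squares 12w, filled where the adjusted p was under 0.05. The filled symbols lie right of 0 except those of Adam9 and Adam32; the 12w value of Mmp3 is left out because no Wt library at 12w held a count.

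The inhibitors are given first, in the order of their level per length. Timp3, a matrix-bound inhibitor with a wide range of targets among MMPs, ADAMs and ADAMTS enzymes, was the most abundant of the 52 genes per length, at a mean of 22.4 CPM per kb of exon over all libraries. At 2w its level was 101.9, 128.4 and 107 CPM in the 3 Wt libraries and 148.3, 156.4 and 278.8 CPM in the 3 Tg7 libraries. At 12w it was 173.7, 135.3 and 175.5 CPM in Wt and 232.3, 262 and 287.3 CPM in Tg7. The groups did not overlap at either age. Timp3 was upregulated with a log2 fold change of 0.79 ± 0.21 (SE) at 2w (adjusted p = 0.030) and of 0.69 ± 0.21 at 12w (adjusted p = 0.0298). Each call was lost when any 1 of 3 libraries was left out (adjusted p = 0.115 to 0.129 at 2w and 0.0777 to 0.106 at 12w), and at 2w the log2 fold change was 0.43 without Tg7 replicate 3. Of the exon bases of Timp3, 21.3% are shared with Syn3 on the opposite strand, and whether the counting used strand is unknown here.

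Timp2, which inhibits MMPs and also takes part in the activation of pro-MMP2 at the cell surface, had a level of 11.8 CPM per kb, the fourth after Timp3, Adam10 and Adam9. Its level at 2w was 36.1, 37 and 36 CPM in Wt and 58.3, 57.3 and 43.3 CPM in Tg7 islets. At 12w the 3 Wt libraries held 28.7, 31.8 and 29.9 CPM and the 3 Tg7 libraries 68.9, 57.5 and 64.8 CPM. Every Tg7 library exceeded every Wt library of its age. Its log2 fold change was 0.54 ± 0.13 at 2w (adjusted p = 0.0177) and 1.08 ± 0.13 at 12w (adjusted p = 7.06e-05). The call at 12w held whichever library was left out, whereas that at 2w was lost when any 1 of 5 libraries was left out (adjusted p up to 0.081), with 0.47 without Tg7 replicate 1 (adjusted p = 0.0549).

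Timp1, a secreted inhibitor known to be induced by inflammatory signals, was lower, at 4.27 CPM per kb. Its level at 2w was 2.49, 3.46 and 2.55 CPM in Wt and 13.5, 4.74 and 10.2 CPM in Tg7 islets. At 12w it was 1.01, 1.11 and 0.40 CPM in Wt and 2.87, 1.44 and 1.72 CPM in Tg7. The groups were again separate at both ages, with the widest spread among the 3 Tg7 libraries at 2w. The log2 fold change was 1.75 ± 0.42 at 2w (adjusted p = 0.0168) and 1.30 ± 0.49 at 12w, which missed the threshold (adjusted p = 0.0732). Without the Tg7 library that held lymphocyte markers, the value at 2w was 1.41 (adjusted p = 0.0598), and the call was also lost without Wt replicate 1 or Wt replicate 3 of that age (adjusted p up to 0.0834). The summed level of the 3 inhibitors was 151.6 ± 15.2 CPM (SD, n = 3) in Wt and 256.9 ± 65.3 CPM in Tg7 islets at 2w, and 192.5 ± 21.1 and 326.3 ± 25.3 CPM at 12w.

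Among 13 tested MMPs, 4 were upregulated at 12w (Mmp14, Mmp15, Mmp2 and Mmp3) and 2 of them, Mmp14 and Mmp2, at 2w. That was 30.8% at 12w and 15.4% at 2w, beside 12.5% and 6.07% of all tested genes, and no MMP was downregulated. The count at 12w includes Mmp3, which was tested only because of its counts in the Tg7 libraries at 12w. Mmp14, the membrane-type collagenase that activates pro-MMP2, was the most abundant MMP, at 6.85 CPM per kb. At 2w it stood at 21.9, 20.1 and 20.8 CPM in Wt and 38.1, 31.2 and 31.5 CPM in Tg7 libraries. At 12w it stood at 3.65, 4.52 and 4.40 CPM in Wt and 12.1, 13.6 and 11.6 CPM in Tg7. No Tg7 library overlapped with Wt at either age, and at 12w the Tg7 level still lay below the Wt level at 2w. In Tg7 over Wt, the log2 fold change was 0.68 ± 0.14 at 2w (adjusted p = 0.0076) and 1.55 ± 0.16 at 12w (adjusted p = 1.55e-05), and both calls held whichever library was left out.

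Mmp2, which cleaves basement membrane collagen, was lower than Mmp14, at 1.24 CPM per kb. Its level at 2w was 3.62, 3.61 and 2.23 CPM in Wt and 11.9, 8.37 and 7.24 CPM in Tg7 islets. At 12w it was 1.13, 0.238 and 0.067 CPM in Wt, from 9, 3 and 1 counts, and 2.37, 1.94 and 2.52 CPM in Tg7. Both ages showed separate groups, and the Wt values at 12w rested on few counts. Its log2 fold change was 1.55 ± 0.45 at 2w (adjusted p = 0.043), a call lost when any 1 of 9 libraries was left out (1.31 without Tg7 replicate 1 at 2w, adjusted p = 0.112), and 2.49 ± 0.60 at 12w (adjusted p = 0.00841). The latter moved to 3.87 without Wt replicate 1 and to 1.87 without Wt replicate 4, and passed the test each time.

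Mmp15, another membrane-type MMP, had 12, 12.7 and 11.9 CPM in Wt and 19.8, 16.7 and 13 CPM in Tg7 islets at 2w. At 12w the values were 3.90, 5 and 6.93 CPM in Wt and 14.5, 16.4 and 16.3 CPM in Tg7. The groups were apart at both ages, but only the difference at 12w passed the test, with a log2 fold change of 1.55 ± 0.22 (adjusted p = 0.000199) against 0.44 ± 0.20 at 2w (adjusted p = 0.187). The difference between those 2 effects was 1.11 ± 0.30 (adjusted p = 0.0925).

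**Figure D2:**
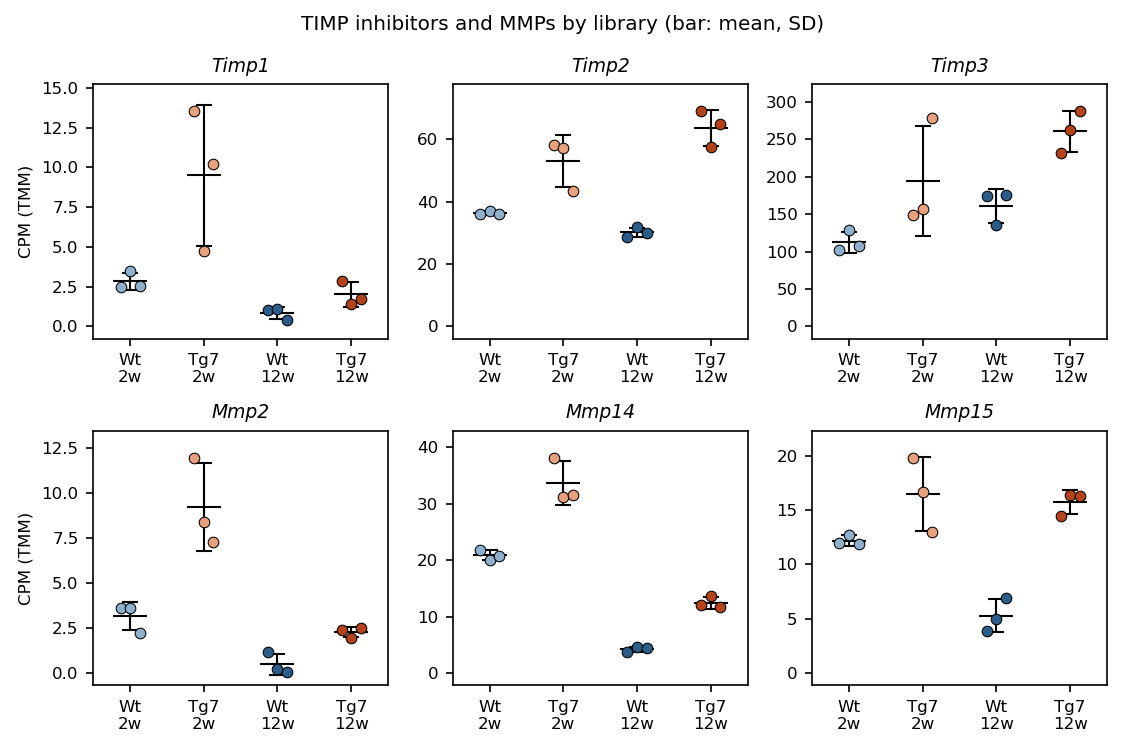
Level (y axis, CPM on TMM-scaled library sizes) of 3 inhibitors and 3 MMPs in each of 12 libraries; points are libraries and bars the mean with SD of 3. In each of the 6 genes the 3 Tg7 libraries lie above the 3 Wt libraries of the same age.

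Mmp3, stromelysin 1, activates other pro-MMPs and was near the limit of detection. It had 3, 6 and 1 counts in Wt and 11, 5 and 1 counts in Tg7 libraries at 2w. At 12w there was no count in any Wt library and there were 23, 15 and 12 counts in the 3 Tg7 libraries. With a floor of 3 counts over the Wt group, its level was at least 11.1-fold higher in Tg7 islets at 12w. Since Mmp3 was tested only because of its counts in these Tg7 libraries, its call is given as a description, with no p.

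Mmp3 lies beside Mmp12 and Mmp13 in the MMP cluster of chromosome 9 (mm9, chr9:7445822-7455972, plus strand). Mmp12, the macrophage elastase, did not pass the test at either age. At 2w it had 3.74, 5.81 and 6.49 CPM in Wt and 5.06, 0.454 and 0.695 CPM in Tg7 libraries. Without Tg7 replicate 1, the library that held lymphocyte markers, its log2 fold change was −3.17 (adjusted p = 0.00121). The collagenase Mmp13 was at or below 1.12 CPM in every library and did not pass the test. Summed macrophage markers were 49.2–68.9 CPM in Wt and 60.1–107.4 CPM in Tg7 libraries at 2w, with the highest sum in that Tg7 replicate 1, and 97.2–111 and 84–88.7 CPM at 12w.

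The start regions of the 3 neighbours are shown because the letters of a binding motif for AP-1, a factor known to act on these MMP genes, occur within the 50 bases before a RefSeq start of each. RefSeq promoters, 250 bases before to 50 after the start on GRCm38.p6, were matched for 33 of the 52 genes, with 37 promoters. The 100 bases before the start follow for Mmp3 (chr9:7445722-7445821), Mmp12 (chr9:7347274-7347373) and Mmp13 (chr9:7272414-7272513), all on the plus strand, with the AP-1 letters TGANTCA and the TATA box letters TATAAA in capitals.
Mmp3: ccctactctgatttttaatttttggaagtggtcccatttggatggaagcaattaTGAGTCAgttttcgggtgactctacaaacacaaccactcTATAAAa
Mmp12: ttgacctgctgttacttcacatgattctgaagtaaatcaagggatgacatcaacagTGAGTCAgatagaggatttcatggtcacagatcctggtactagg
Mmp13: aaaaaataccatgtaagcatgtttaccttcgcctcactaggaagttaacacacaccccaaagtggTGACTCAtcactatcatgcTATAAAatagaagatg
The AP-1 letters begin 46 bases before the start in Mmp3, 44 in Mmp12 and 35 in Mmp13. RefSeq lists a second start of Mmp12 upstream (window chr9:7344147-7344446), with no match to either motif, and the TATA box letters of the Mmp12 start shown lie after it, outside the printed bases. Searched on both strands, TGANTCA occurred in 4 of the 37 promoters, or 10.8%, the fourth being that of Adam19, and in 7.81% of all 32841 promoters of the table. TATAAA occurred in 13.5% of the 37 and in 13.6% of all promoters.

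For contrast, the same stretch is given for 3 upregulated genes without TGANTCA, Timp3 (chr10:86300312-86300411), Mmp14 (chr14:54431498-54431597) and Adamts2 (chr11:50601985-50602084), all on the plus strand, with the GC box letters GGGCGG of either strand in capitals.
Timp3: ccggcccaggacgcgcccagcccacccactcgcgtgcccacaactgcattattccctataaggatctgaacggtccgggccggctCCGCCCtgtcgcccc
Mmp14: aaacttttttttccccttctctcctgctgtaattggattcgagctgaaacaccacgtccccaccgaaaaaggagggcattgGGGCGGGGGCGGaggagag
Adamts2: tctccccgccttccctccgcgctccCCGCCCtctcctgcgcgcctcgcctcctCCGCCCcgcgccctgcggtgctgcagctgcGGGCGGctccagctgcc
GGGCGG occurred in 24 of the 37 promoters, or 64.9%, and in 35.7% of all promoters; 2 adjoining matches make up the long run of capitals in Mmp14. The promoters of Mmp2 and Adam12 are not shown.

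The remaining MMPs did not pass the test. Mmp24, a membrane-type MMP known from neurons, followed Mmp14 in level per length, at 6.65 CPM per kb, and its level was 26.3 to 36.7 CPM in all 12 libraries. Its log2 fold change was −0.08 ± 0.13 at 2w and 0.00054 ± 0.13 at 12w (0.45 at 12w without scaling factors, which passed the test), and 13.6% of its exon bases are shared with another gene on the opposite strand. Mmp19 had 0.889, 0.294 and 1.01 CPM in Wt and 3.89, 1.95 and 1.39 CPM in Tg7 at 2w, and 0.126, 0.159 and 0.733 against 1.07, 1.16 and 2.06 CPM at 12w. Its groups did not overlap at either age, but the adjusted p was 0.0964 at 2w and 0.061 at 12w, and 23.1% of its exon bases are shared with a gene on the opposite strand. Mmp11, Mmp16 and Mmp17 had log2 fold changes of 0.43 to 0.99 at 2w and of 1.22 to 1.67 at 12w, and those of Mmp23 and Mmp28 were −0.25 to −0.05 and −0.04 to 0.43. Mmp25 and Mmp9, both known from neutrophils, were not tested. Mmp25 had 47 of its 60 counts in Tg7 replicate 1 at 2w, and Mmp9 had 25 counts there against at most 12 elsewhere.

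Of 14 tested ADAM genes, 4 were upregulated and 2 downregulated at 12w, or 28.6% and 14.3%, beside 12.5% and 11.2% of all tested genes. At 2w 2 were upregulated and 1 downregulated, or 14.3% and 7.14%, beside 6.07% and 4.55%. Adam9, a membrane protease able to shed surface proteins, had the third level per length of the 52, at 12.9 CPM per kb. At 2w its level was 72.8, 66.4 and 63.9 CPM in Wt and 39.2, 29.5 and 34.8 CPM in Tg7 libraries. At 12w it was 55.5, 60.9 and 108.2 CPM in Wt and 31.4, 28.9 and 30.4 CPM in Tg7. All Tg7 libraries lay below all Wt libraries, with Wt replicate 4 at 12w the highest. Adam9 was downregulated, with a log2 fold change of −0.97 ± 0.21 at 2w (adjusted p = 0.00871) and −1.31 ± 0.21 at 12w (adjusted p = 0.000502). Without Wt replicate 4, the value at 12w was −0.94 (adjusted p = 0.000136). Without scaling factors, the value at 2w was −0.80 and missed the threshold (adjusted p = 0.0554).

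Adam32, better known from testis, lies next to Adam9 on the same strand (mm9, chr8:25946612-26059276, with Adam9 at chr8:26060083-26127394). It had 2.13, 1.55 and 0.638 CPM in Wt and 0.16, 0.714 and 0.05 CPM in Tg7 islets at 2w. At 12w it had 6.42, 5.63 and 4.60 CPM in Wt and 1.07, 0.774 and 0.40 CPM in Tg7. The groups overlapped at 2w and were apart at 12w. The log2 fold change was −2.27 ± 0.71 at 2w (adjusted p = 0.0549) and −2.87 ± 0.64 at 12w (adjusted p = 0.00524). Adam5, the next gene along, did not pass the test, with −0.47 ± 0.67 at 12w.

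Adam22 and Adam23 are ADAMs without protease activity that bind LGI proteins at synapses. Adam23 had 9.55, 14.9 and 12.8 CPM in Wt and 27.6, 28.5 and 21.6 CPM in Tg7 islets at 2w. At 12w it had 5.92, 5.71 and 7.33 CPM in Wt and 29.6, 30.7 and 27.8 CPM in Tg7. The groups were far apart at both ages. In Tg7 over Wt, the log2 fold change was 1.07 ± 0.18 at 2w (adjusted p = 0.00209) and 2.21 ± 0.19 at 12w (adjusted p = 3.96e-06), with a difference between the ages of 1.14 ± 0.26 (adjusted p = 0.0518). Adam22 was present at 58.3, 57.5 and 62.8 CPM in Wt and 102.4, 103.5 and 89.9 CPM in Tg7 islets at 2w. At 12w its level was 63.5, 51 and 82.7 CPM in Wt and 104.2, 103.9 and 90.1 CPM in Tg7. Again no library of Tg7 overlapped with Wt. Its log2 fold change was 0.73 ± 0.15 at 2w (adjusted p = 0.008) and 0.60 ± 0.15 at 12w (adjusted p = 0.0123), the latter lost without Tg7 replicate 2 at 12w (adjusted p = 0.0513).

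Adam12, a protease of mesenchymal cells, had 5.45, 6.92 and 5.96 CPM in Wt and 14.4, 6.30 and 8.68 CPM in Tg7 islets at 2w. At 12w it had 0.882, 0.397 and 0.333 CPM in Wt and 2.54, 1.77 and 1.89 CPM in Tg7. The groups overlapped at 2w and were separate at 12w. The log2 fold change was 0.68 ± 0.33 at 2w (adjusted p = 0.197) and 2.04 ± 0.44 at 12w (adjusted p = 0.00449).

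Adam8, known from leukocytes, had 1.51, 2.06 and 1.07 CPM in Wt and 5.30, 4.70 and 3.09 CPM in Tg7 islets at 12w, with a log2 fold change of 1.50 ± 0.49 (adjusted p = 0.0403). That call was lost when any 1 of 6 libraries was left out, with 1.27 (adjusted p = 0.116) without Wt replicate 4 at 12w. At 2w the library with lymphocyte markers held 13.7 CPM of Adam8 against 4.41 and 3.72 CPM in the other Tg7 libraries.

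Adam10, the main sheddase of Notch and many other surface proteins, had the second level per length, at 13.5 CPM per kb, and did not pass the test. Its level lay between 57 and 89.2 CPM in all 12 libraries, with log2 fold changes of −0.07 ± 0.15 at 2w and −0.22 ± 0.15 at 12w (0.21 at 12w without scaling factors). The other 8 ADAM genes, Adam17 among them, did not pass the test at either age or were too low to test.

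**Figure D3:**
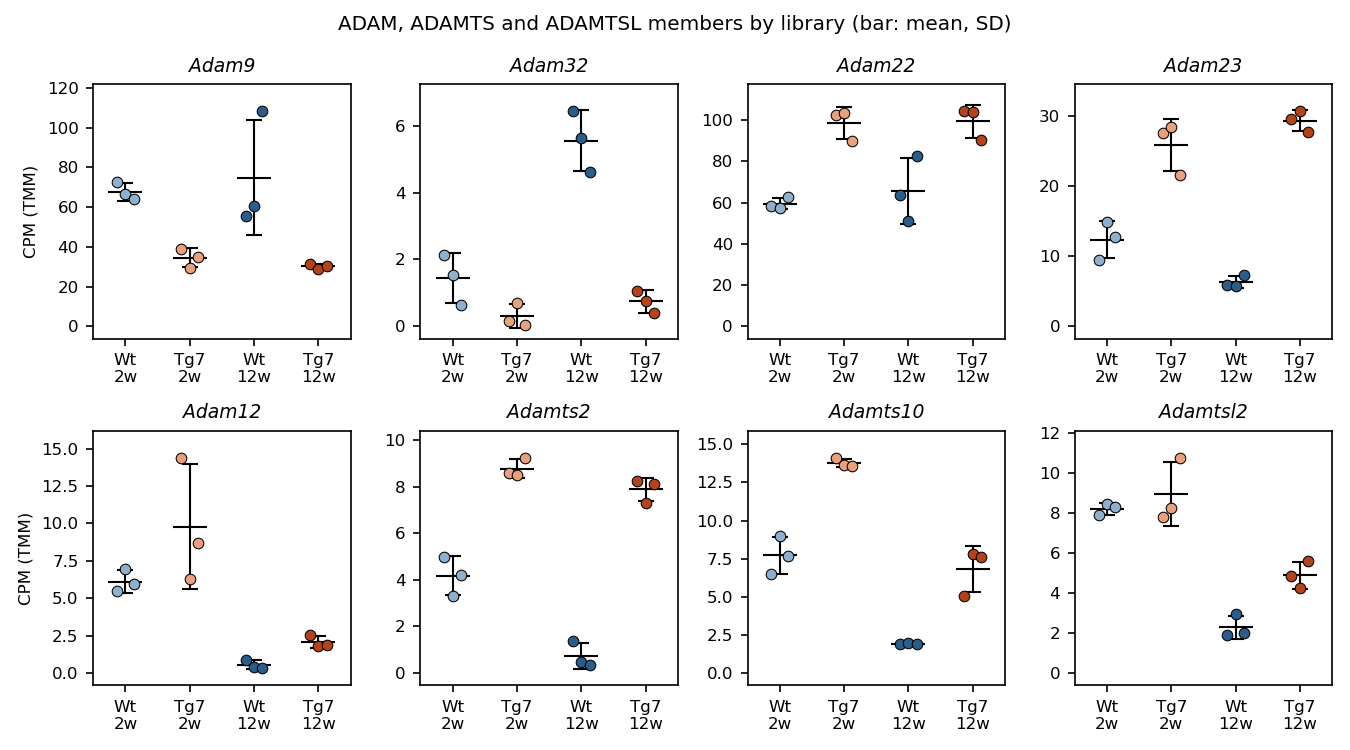
Level (y axis, CPM on TMM-scaled library sizes) of 8 ADAM, ADAMTS and ADAMTSL genes in each of 12 libraries; points are libraries and bars the mean with SD of 3. At 12w the Tg7 libraries lie below Wt in Adam9 and Adam32 and above Wt in the other 6 genes.

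Among the ADAMTS genes, 2 of 14 tested passed the test at 2w and 5 at 12w, each of them upregulated, or 14.3% and 35.7% beside 6.07% and 12.5% of all tested genes. Adamts2, a procollagen N-proteinase that trims fibrillar collagens, had 4.98, 3.31 and 4.20 CPM in Wt and 8.57, 8.50 and 9.23 CPM in Tg7 islets at 2w. At 12w it had 1.39, 0.476 and 0.333 CPM in Wt, from 11, 6 and 5 counts, and 8.23, 7.30 and 8.12 CPM in Tg7. The 6 Tg7 libraries thus lay between 7.30 and 9.23 CPM, whereas all Wt libraries at 12w lay below those at 2w. In Tg7 over Wt, the log2 fold change was 1.07 ± 0.31 at 2w (adjusted p = 0.0424), a call lost when any 1 of 9 libraries was left out (1.09 without Tg7 replicate 1 at 2w, adjusted p = 0.0646), and 3.57 ± 0.39 at 12w (adjusted p = 2.52e-05). Without Wt replicate 1 the value at 12w was 4.25.

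Adamts2 was the 1 gene of the 48 whose Tg7 effect differed between the ages, by 2.50 ± 0.50 on the log2 scale (adjusted p = 0.0265). Over all tested genes, 0.871% had a higher and 0.307% a lower effect at 12w than at 2w. The call was lost when any 1 of 6 libraries was left out (adjusted p up to 0.0745), and the difference was 3.18 without Wt replicate 1 at 12w. The median difference of effects was 0.49 over the 48 genes and −0.03 over all tested genes.

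Adamts10, which binds fibrillin, had 6.52, 8.98 and 7.66 CPM in Wt and 14.1, 13.6 and 13.6 CPM in Tg7 islets at 2w. At 12w it had 1.89, 1.98 and 1.87 CPM in Wt and 5.07, 7.79 and 7.60 CPM in Tg7. The groups did not overlap. Its log2 fold change was 0.84 ± 0.21 at 2w (adjusted p = 0.0216), lost when any 1 of 3 libraries was left out, and 1.83 ± 0.24 at 12w (adjusted p = 0.000106).

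Adamts1, a proteoglycan-cleaving enzyme and the most abundant ADAMTS at 4.93 CPM per kb, had 17.8, 27.7 and 20.1 CPM in Wt and 31.1, 35.1 and 30.9 CPM in Tg7 islets at 12w. Its log2 fold change was 0.56 ± 0.17 (adjusted p = 0.0268) at 12w and −0.0025 ± 0.17 at 2w. Adamts7 and Adamts18 were upregulated at 12w as well, by 1.52 ± 0.43 (adjusted p = 0.0217) and 1.01 ± 0.32 (adjusted p = 0.0345) on the log2 scale. The calls of Adamts1, Adamts7 and Adamts18 were lost when any 1 of 5, 3 and 5 libraries, respectively, was left out. Without Wt replicate 4 at 12w, Adamts1 had 0.50 (adjusted p = 0.0588) and Adamts7 1.41 (adjusted p = 0.0589). Adamts4, an aggrecanase, had 1.76, 5.95 and 2.73 CPM in Wt and 7.32, 7.35 and 9.26 CPM in Tg7 islets at 12w and missed the threshold, with 1.17 ± 0.45 (adjusted p = 0.0789). The other 8 tested ADAMTS genes had log2 fold changes of −0.23 to 1.33 at 2w and 0.04 to 2.38 at 12w and passed at neither age.

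Of the 4 ADAMTSL genes, 2 were upregulated, both at 12w, or 50% beside 12.5% of all tested genes. None passed the test at 2w, where 6.07% of all tested genes were upregulated. Adamtsl2, which binds latent TGFβ-binding protein, had 7.89, 8.47 and 8.29 CPM in Wt and 7.83, 8.24 and 10.8 CPM in Tg7 islets at 2w. At 12w it had 1.89, 2.94 and 2.00 CPM in Wt and 4.84, 4.26 and 5.60 CPM in Tg7. The groups overlapped at 2w only. The log2 fold change was 1.10 ± 0.25 at 12w (adjusted p = 0.00648) and 0.13 ± 0.23 at 2w. Adamtsl4, a fibrillin-binding protein, was upregulated at 12w by 1.22 ± 0.37 on the log2 scale (adjusted p = 0.0273), a call lost when any 1 of 5 libraries was left out (0.998 without Wt replicate 4, adjusted p = 0.0827). Adamtsl5 had 1.33 ± 0.48 (adjusted p = 0.0574).

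A further question was how these levels changed between 2w and 12w in each genotype. In Wt islets, 18 of 48 genes fell and 1 rose from 2w to 12w, where 7.91% of all tested genes fell and 7.9% rose. In Tg7 islets, 10 fell and none rose, where 6.01% of all tested genes fell and 7.02% rose. Of the 48 genes, 3 were higher at 12w in Tg7 islets at an unadjusted p under 0.05, and DESeq2 called 1 higher and 12 lower. These counts have no share of all tested genes beside them and are descriptions. The median log2 change was −0.96 in Wt and −0.35 in Tg7 islets, against 0.04 and −0.01 over all tested genes. A set of 9 genes fell in both genotypes, which is likewise a description without the joint share of all tested genes. Whether a gene changed differently in the genotypes is the same test as the difference of Tg7 effects above. Of the 48 genes, only Adamts2 passed it. A higher effect at 12w at an unadjusted p under 0.05 was seen in 11 of them. That count, too, has no share of all tested genes beside it and is a description.

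The largest called falls in Wt islets, on the log2 scale, were −4.05 ± 0.85 in Adamts12, −3.60 ± 0.43 in Adam12 and −2.96 ± 0.59 in Mmp2. These values rest on few counts in the Wt libraries at 12w: 0, 0 and 6 for Adamts12, 7, 5 and 5 for Adam12, and 9, 3 and 1 for Mmp2. In Tg7 islets, Adam12 fell by 2.24 ± 0.35 and Mmp2 by 2.01 ± 0.46, and Adamts12 had −1.66 ± 0.66 (adjusted p = 0.118). Mmp14 fell by 2.31 ± 0.16 in Wt and by 1.44 ± 0.15 in Tg7 islets. Adamts2 fell by 2.65 ± 0.39 in Wt (adjusted p = 0.000509) and had −0.16 ± 0.30 in Tg7 islets (adjusted p = 0.78). Adam32 was the gene that rose in Wt islets, by 1.94 ± 0.61 (adjusted p = 0.0433). Timp2 and Timp3 passed this test in neither genotype, whereas Timp1 fell in both. The count in Wt was 11 without Wt replicate 3 at 2w.

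**Figure D4:**
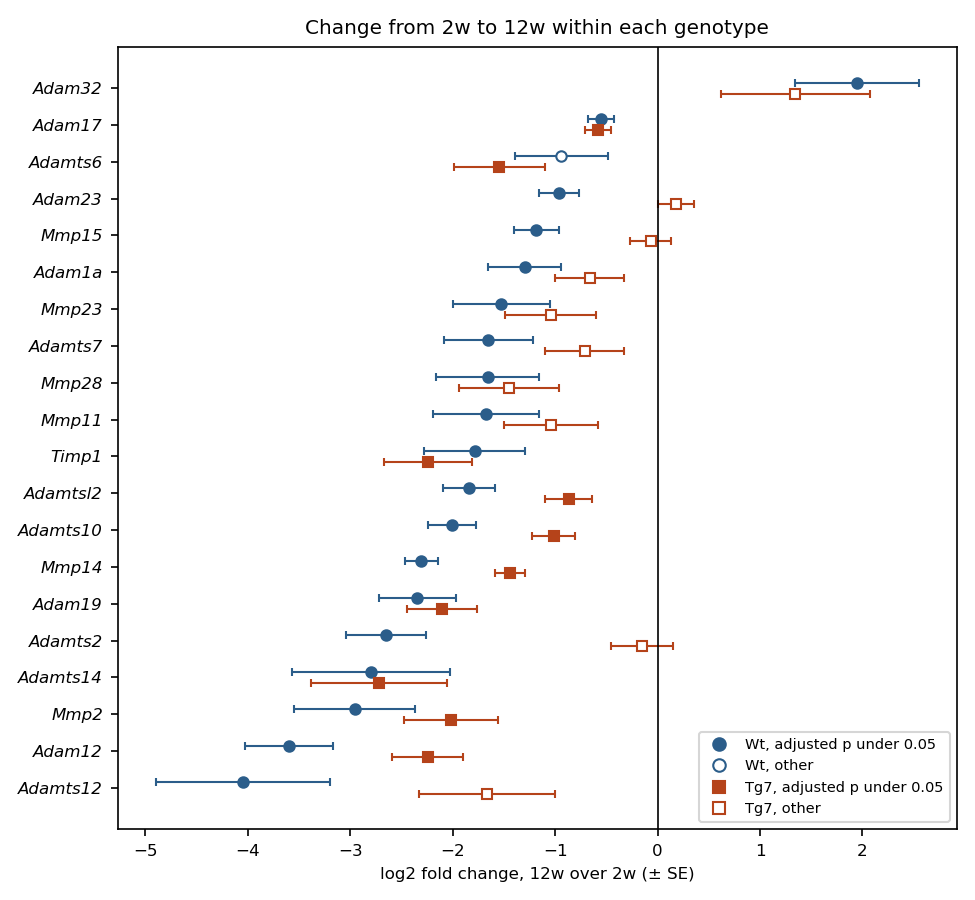
Log2 fold change of 12w over 2w (x axis, ± SE) for the 20 genes called in at least 1 genotype; circles are Wt and squares Tg7, filled where the adjusted p was under 0.05. All filled symbols lie left of 0 except Adam32 in Wt, and the Tg7 values of Adamts2, Adam23 and Mmp15 lie near 0.

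Genes around the proteases were read in 4 further lists, whose shares stand beside 6.07% upregulated and 4.55% downregulated of all tested genes at 2w and 12.5% and 11.2% at 12w. Of 23 tested regulators of these enzymes, 10 were upregulated and 1 downregulated at 12w (43.5% and 4.35%), and 4 and 1 at 2w (17.4% and 4.35%). Bsg, basigin, which is known to induce MMPs, had 447.3 ± 67.4 CPM (SD, n = 3) in Wt and 894.6 ± 42.4 CPM in Tg7 islets at 12w and was upregulated (adjusted p = 8.95e-05). Pcolce, the enhancer of procollagen C-proteinase, rose by 1.23 ± 0.22 at 2w and 1.46 ± 0.23 at 12w, and the ADAM10-binding tetraspanins Tspan33 and Tspan17 by 1.23 ± 0.14 and 1.11 ± 0.24 at 12w. Spock1, a testican that can inhibit MMP activation, was downregulated at 12w, from 58.1 ± 2.0 to 10.5 ± 1.31 CPM (log2 fold change −2.47 ± 0.17).

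Of 24 tested other matrix proteases and serpins, 11 were upregulated and 2 downregulated at 12w (45.8% and 8.33%), and 7 were upregulated at 2w (29.2%). The serpin Serpine2 had log2 fold changes of 0.89 ± 0.21 at 2w and 2.47 ± 0.23 at 12w. Serping1 and the serine protease Prss23 were likewise upregulated at both ages, with 1.31 ± 0.23 and 2.30 ± 0.22 at 12w. Hpse, heparanase, was downregulated at 12w (−1.99 ± 0.36).

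Of 27 tested matrix substrates, 18 passed the test at 12w and 10 at 2w (66.7% and 37%), each of them upregulated. Of the substrates, 5 (Col1a1, Col1a2, Col3a1, Dcn and Lum) are also among the stellate and fibroblast markers whose sums are given above. Col1a1, a chain of fibrillar collagen I, went from 41.8 ± 8.56 to 92.5 ± 12.5 CPM at 2w and from 3.44 ± 0.90 to 53.7 ± 10.5 CPM at 12w, with a log2 fold change of 3.996 ± 0.24 at 12w. Col3a1, Col1a2, Bgn, Dcn, Lum and Tnc were upregulated at both ages, by 2.18 to 3.81 on the log2 scale at 12w. The basement membrane chain Col4a2 was upregulated at 12w (1.29 ± 0.12) and had 0.02 ± 0.12 at 2w.

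Of 39 tested surface proteins that these and related enzymes shed, 12 were upregulated and 4 downregulated at 12w (30.8% and 10.3%), and 6 and 1 at 2w (15.4% and 2.56%). Bace2, a β-cell sheddase and itself a shed protein, was downregulated at both ages, from 273.8 ± 58.9 to 75.4 ± 11.2 CPM at 2w and from 409.1 ± 25.6 to 107.7 ± 6.07 CPM at 12w. Its substrate Cltrn, collectrin, rose at both ages, by 0.71 ± 0.16 and 0.91 ± 0.16 on the log2 scale, as did Aplp1 and Nrg1. Sdc1 and L1cam were upregulated at 12w, by 1.48 ± 0.29 and 0.97 ± 0.20. The medians of the 4 lists at 12w were 0.40 for regulators, 0.53 for other proteases, 1.29 for substrates and 0.42 for shed proteins.

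The summed level of each subfamily shows the pattern by library. Summed MMP levels were 89.2 ± 1.54 CPM (SD, n = 3) in Wt and 112.1 ± 15.8 CPM in Tg7 islets at 2w, and 48.1 ± 1.32 and 73.4 ± 2.66 CPM at 12w. Summed ADAMTS levels were 52.8 ± 7.38 and 89.8 ± 5.14 CPM at 12w, and summed ADAMTSL levels 5.30 ± 1.47 and 12.1 ± 1.99 CPM. Summed ADAM levels, set mostly by Adam10, Adam22, Adam9, Adam15 and Adam17, were 296.5 ± 51.6 and 310.9 ± 12.6 CPM at 12w and overlapped between the genotypes. These sums are descriptions and carry no test.

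**Figure D5:**
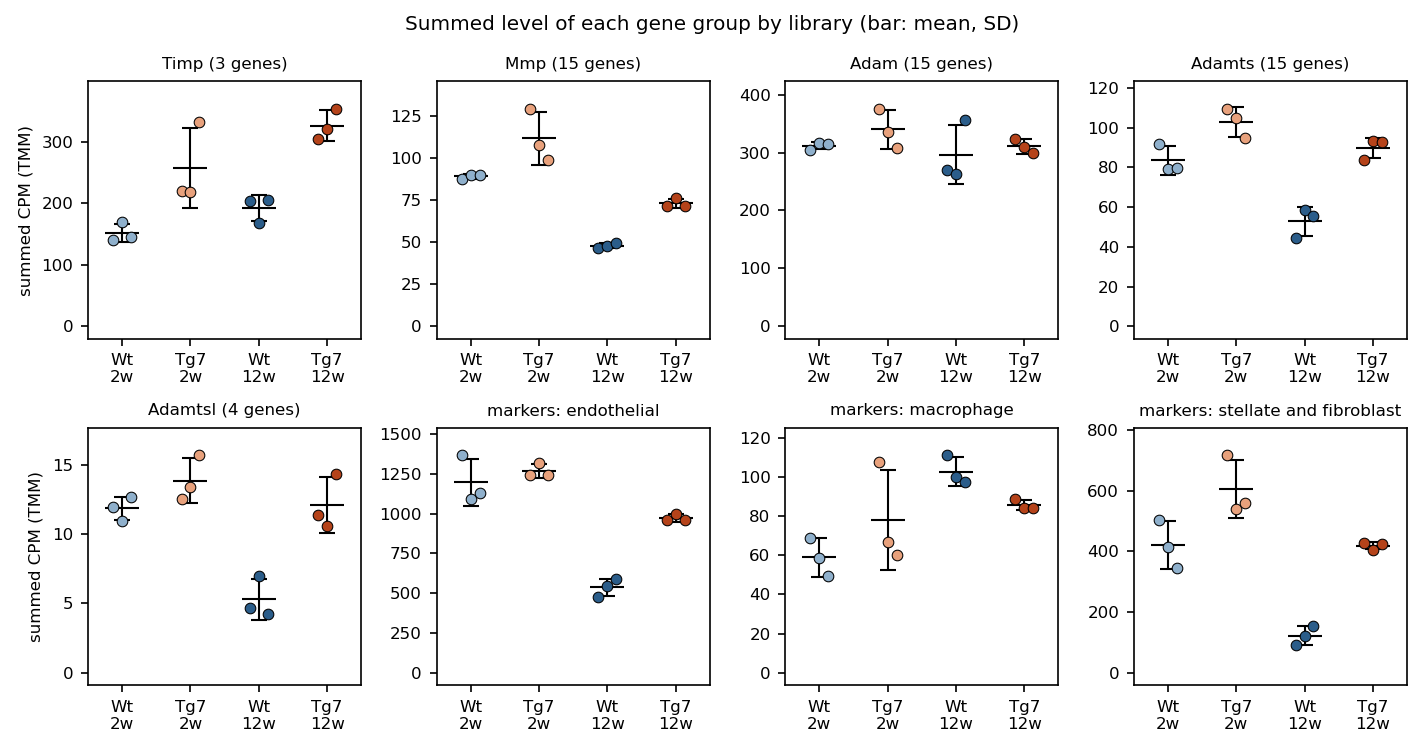
Summed level (y axis, CPM on TMM-scaled library sizes) of the 5 subfamilies and of 3 lists of cell type markers in each of 12 libraries; points are libraries and bars the mean with SD of 3. At 12w the Tg7 libraries lie above Wt for the Timp, Mmp, Adamts and Adamtsl sums and for endothelial and stellate markers, overlap with Wt for the Adam sum, and lie below Wt for macrophage markers.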

How the data were processed

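Islet RNA was made into libraries (NEB Ultra II) for paired-end sequencing on a HiSeq2500. The authors trimmed reads with Trimmomatic, aligned them to mm9 (NCBIM37) with TopHat2 2.0.11 and deposited raw counts per Ensembl gene from featureCounts; the sources used here give neither its version nor its strand setting. Of 37991 gene identifiers, 37205 received a symbol, and mm9 coordinates and exon lengths came from GENCODE vM1. Genes that passed filterByExpr (minimum count of 10, minimum total of 15; 15961 genes) were scaled by TMM and fitted as 4 group means in edgeR 4.0.16 (quasi-likelihood F test, R 4.3.3). The 5 contrasts were adjusted by Benjamini-Hochberg over all tested genes, with a threshold of 0.05; adjusted p values are from edgeR unless another tool is named. Each SE was taken as the estimate over the root of its F statistic. A script copied the sequences from RefSeq and GENCODE tables.

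The text names every gene called in Tg7 against Wt or in the difference between the ages, every MMP and TIMP, the 3 genes with the highest level per length in each other subfamily, the matrix remodellers the study followed, and, of the further lists, genes called at both ages and the 5 with the lowest p at 12w. A gene of the further lists that this rule names is not reported here. Genes named for a change with age, a seed match or a motif fall outside this rule and were chosen after their values were seen. The genes, lists and tests were chosen with earlier results of these data known. Alternatives were DESeq2 1.42.0, other scaling factors and filters, the 6 libraries of a contrast alone, a replicate block and leaving out each library. Same-numbered libraries were not treated as pairs. The fit was tested on simulated counts. The floor of 3 counts covers counting error only.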

Additional observations from a re-analysis of the deposited data

Results flagged for a closer look

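The effect of the transgene on Adamts2, the procollagen N-proteinase, differed between the ages by the test of the difference itself: the log2 fold change of Tg7 over Wt was 2.498 higher at 12w than at 2w (SE 0.50, edgeR, adjusted p = 0.0265). The call was lost when any 1 of 6 libraries was left out (adjusted p up to 0.0745), and the difference was 3.182 without Wt replicate 1 at 12w, where it passed. The mean level was 4.16 ± 0.84 CPM (SD, n = 3) in Wt and 8.77 ± 0.40 CPM in Tg7 islets at 2w, and 0.73 ± 0.57 and 7.88 ± 0.51 CPM at 12w, so that the Wt mean differed more between the ages than the Tg7 mean. All Tg7 libraries exceeded all Wt libraries at each age, but the Wt libraries at 12w held only 11, 6 and 5 counts of Adamts2. Summed stellate and fibroblast markers, 91.7–154.1 CPM in Wt and 405.6–426.6 CPM in Tg7 libraries at 12w, moved with it, and their part in the result was not tested.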

How the results depend on the processing

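Of 1772 values of single genes under alternatives, 1652 kept their side of the threshold, 75 lost a call, 66 of them when 1 library was left out, and 45 gained one. Without scaling factors (library size alone), the median of all genes moved by 0.166 at 2w and 0.44 at 12w on the log2 scale, and the count of 19 called genes at 12w became 30 (28 up, 2 down). The single call in the difference between the ages became 4 with DESeq2, 3 with library size alone, 2 with upper-quartile factors, 2 without the filter, 2 with a stricter filter and 3 with the replicate block. Leaving out each library in turn gave 4 to 12 called genes at 2w, 14 to 21 at 12w, 0 to 4 in the difference, 11 to 21 for the change with age in Wt and 7 to 12 in Tg7; the cause was not tested. Without Wt replicate 3 at 2w, Wt replicate 2 at 12w or any of the 3 Tg7 replicates at 12w, the difference had 0 calls, and without Wt replicate 4 at 12w it had 4.

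Residuals of same-numbered Tg7 and Wt libraries correlated at −0.0214, −0.167 and −0.0343 at 2w and −0.0894 and −0.0112 at 12w. The replicate block gave 11 called genes at 2w, 17 at 12w, 16 for age in Wt and 10 in Tg7; in that fit Wt replicate 4, alone in its number, took no part in the estimates. At 12w, it ended the calls of Adam8, Adamts7, Adamtsl4 and Timp3. The fit on the 6 libraries of that age alone ended those of Adam22, Adamts1, Adamts18 and Adamtsl4 (adjusted p = 0.0611 to 0.0826), and library size alone ended that of Adam9 at 2w. The depth limits Mmp3, Mmp2, Adam12 and Adamts12, with 0 to 9 counts in Wt libraries at 12w, and Adamts2, with 11, 6 and 5. A fitted fold change for Mmp3 is not given, since the Wt group held no count.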
